A study of Mus musculus with 6 samples.

Results

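The genes described here build and run the mitotic spindle. They encode the kinases that start mitosis, the kinetochore, which is the protein layer that ties each chromosome to spindle microtubules, the checkpoint that waits for every chromosome to be attached, the kinesin motors, the condensins that compact chromosomes and the proteins that divide the cell in cytokinesis. They were chosen by name, as a list of 60 symbols, with earlier results of these data known. Of these symbols 59 were read by a probe set annotated with exactly 1 gene symbol, out of 19937 genes measured in all. Hjurp, the chaperone that loads the centromeric histone Cenpa, had no such probe set and was not analysed here. Where a gene had several probe sets, the 1 with the highest mean over the arrays was used. The list was divided into 10 role groups, and each value below is a log2 intensity, so that a drop of 1 is a 2-fold lower signal.

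Mitotic transcripts are made mostly in G2 and M phase and are kept low in resting cells. Their level in a bulk sample thus depends in part on how many cells are dividing. Much of this timing runs through promoters that carry CCAAT boxes, which bind the factor NF-Y, and the cell cycle homology region, whose core letters are TTTGAA and which binds the MuvB complex, a repressor in resting cells and an activator with B-Myb and Foxm1 in dividing ones. In blood formation, the progenitors multiply fast in culture with stem cell factor and interleukin 3, while long-term stem cells are mostly at rest.

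The samples were lineage-negative (Lin-) hematopoietic progenitors of C57BL6 mice, cells without the surface markers of mature blood lineages, and they carried Rosa26rtTA, a transactivator that turns on Tet promoters in the presence of doxycycline. Both groups were kept in serum-free medium with 4 cytokines, namely IL-3 at 20 ng/ml and SCF (stem cell factor), IL-11 and Flt3L at 50 ng/ml each, received a lentivirus 24 h after isolation and doxycycline (1 µg/ml) a further 24 h later. The 3 arrays labelled EVI1 hold cells with a Tet vector for Evi1 followed by an internal ribosome entry site and EGFP, and the 3 arrays labelled EGFP hold cells with a Tet vector for EGFP only, so both groups share the transactivator, the lentivirus, the doxycycline and the green marker. EGFP-positive cells were sorted, with the RNA taken 20 h after doxycycline by the series' design text and 24 h after it by the treatment protocol. The labels give neither the age and sex of the mice nor the vector dose, nor whether each replicate came from its own mice and its own transduction. The p-values therefore measure the spread between these arrays, which may be technical. EVI1, a zinc finger transcription factor of the Mecom locus, is linked to stem cell maintenance and myeloid leukemia, and the comparison asks which transcripts differ after about a day of its expression.

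The median signal was 7.24 to 7.31 on the 6 arrays. Mecom itself, the endogenous gene, differed by -0.60 ± 0.26 (SE, n = 3 arrays per group, limma adjusted p = 0.166). This probe set thus showed no rise in the EVI1 group. Its means, 6.92 (EGFP) and 6.32 (EVI1), were at background. In these groups 95% of 1027 olfactory receptor genes, which blood cells are not thought to express, read below 6.95 and 6.99. Only EGFP replicate 2 read above that level, at 7.53. Signals this dim cannot serve as a check of the labels. It is not settled here if this probe set detects the vector's Evi1, and the groups keep their labels as names. Of all genes, 9.18% fell and 9.06% rose at a limma adjusted p under 0.05. Among 7 progenitor markers (Ptprc, Kit, Cd34, Flt3, Spi1, Runx1 and Myb) 5 fell and 2 rose, with array means of 10.23 to 10.33 (EGFP) against 9.41 to 9.57 (EVI1). For neutrophil markers 2 of 8 fell and 1 rose (array means of 9.66 to 10.70 against 8.68 to 9.77), and for monocytes and macrophages 2 of 7 fell and 2 rose (8.92 to 9.40 against 8.85 to 9.32). Of the mast cell markers 4 of 7 fell (8.69 to 8.88 against 7.81 to 7.90; Mcpt4, Tpsab1 and Tpsb2 were dim in both groups), of the megakaryocyte markers 1 of 3 fell (9.01 to 9.47 against 8.56 to 8.73), and 1 of 3 erythroid markers rose (8.78 to 9.04 against 9.19 to 9.40). The T cell list had no called gene among 4 (6.41 to 6.66 against 6.58 to 6.65), while 1 of 3 B cell markers (6.50 to 6.65 against 6.95 to 7.31) and 2 of 5 stromal or endothelial markers (7.55 to 7.72 against 8.29 to 8.69) rose. The part of these markers in the results on mitotic genes was not tested.

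The mitotic list was lower in the arrays labelled EVI1 nearly throughout. Of its 59 measured genes 53 fell (89.8%, beside 9.18% of all genes), 1 rose and 5 did not pass the test. The median log2 difference was -1.15, a 2.21-fold lower signal, beside a median of 0.0060 over all genes. At least 2-fold lower and called were 37 of them, beside 3.03% of all genes. In 56 members every EVI1 array lay below every EGFP array, which held for 16.5% of all genes, and in 1 every EVI1 array lay above, which held for 16.1%. With the replicate number as a block, 56 members fell and 2 rose, and 11% of all genes fell. The list was chosen with earlier results of these data known, so its contrast with all genes is a description. In these bulk samples, fewer dividing cells and less of each transcript per cell cannot be told apart.

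**Figure D1:**
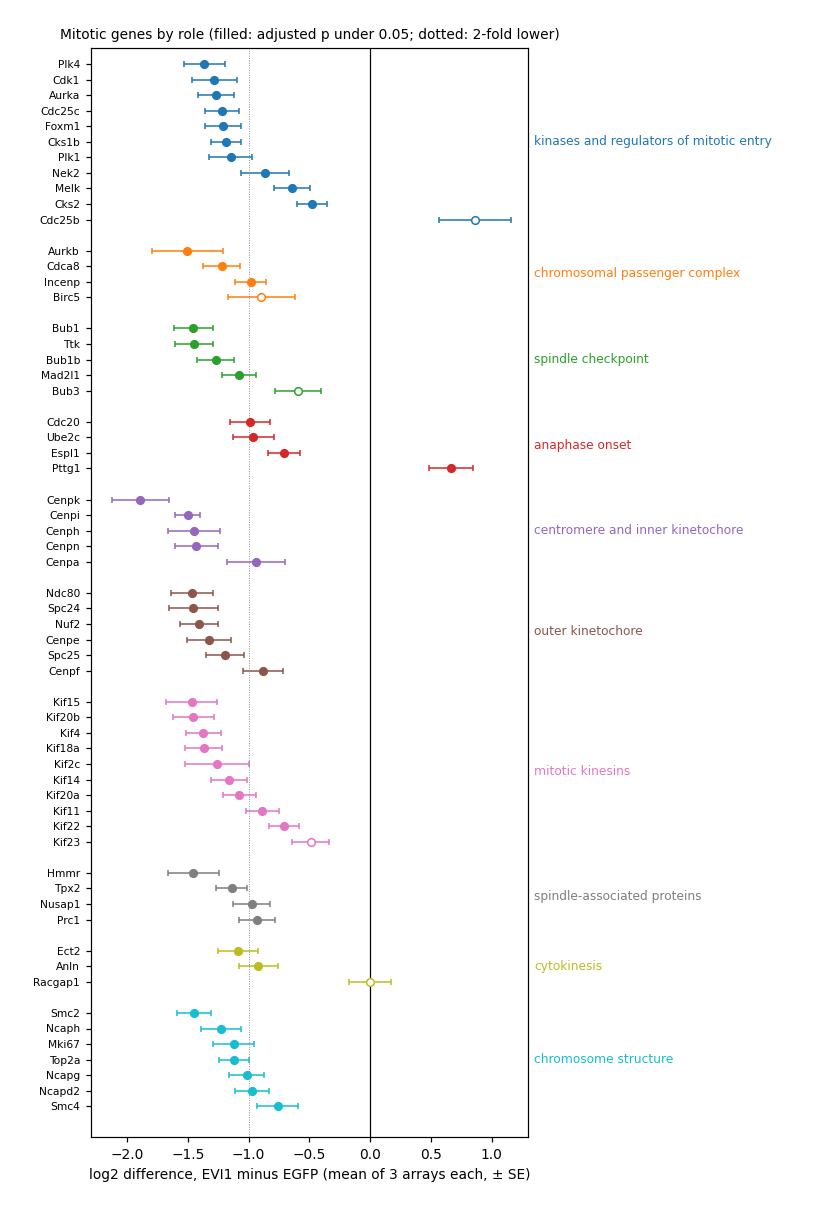
Log2 difference between the 3 EVI1 and the 3 EGFP arrays (horizontal axis, ± SE) for each of the 59 mitotic genes, grouped by role; filled points passed the test at an adjusted p under 0.05 and open points did not. All but 3 genes lie to the left of 0 by more than their SE, and the exceptions are Pttg1 at 0.66, Cdc25b at 0.86 and Racgap1 at -0.002.

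RefSeq promoter windows (250 bases before to 50 after the transcription start, GRCm38.p6) were found for 52 of the 60 genes, 57 windows in all because a few genes have several starts. The box CCAAT, or ATTGG on the other strand, stood in 43 of these 57 windows (75.4%), against 37.4% of all 32851 windows of the same length. TTTGAA, or TTCAAA on the other strand, stood in 38 of them (66.7%, against 17.9%), and in 33 (57.9%, against 4.94%) it lay within 50 bases of the start on either side. Both motifs together were found in 33 of the 57 (57.9%, against 6.95%). The variant TTCGAA was found in 4 windows (7.02%, against 1.56%). Of 3 forms of the E2F site, the first of which can share letters with the reversed box, TTGGCGC stood in 8 windows (14%, against 2.45%), TTCCCGC in 5 (8.77%, against 4.6%) and TTCGCGC in 2 (3.51%, against 1.59%). A blood-factor motif, GATAAG, was found in none, against 7.44% of all windows. These matches describe letters and are not measured binding.

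The 100 bases just before the start are shown for 6 genes that fell, drawn from mitotic entry, anaphase onset, the kinesins and chromosome structure, because each carries both motifs there; capitals mark CCAAT or ATTGG and TTTGAA or TTCAAA.
Cdk1: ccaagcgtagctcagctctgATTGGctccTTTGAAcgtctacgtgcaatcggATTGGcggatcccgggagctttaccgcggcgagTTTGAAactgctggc
Cdc20: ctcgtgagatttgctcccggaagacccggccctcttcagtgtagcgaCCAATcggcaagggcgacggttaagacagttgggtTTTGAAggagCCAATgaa
Ube2c: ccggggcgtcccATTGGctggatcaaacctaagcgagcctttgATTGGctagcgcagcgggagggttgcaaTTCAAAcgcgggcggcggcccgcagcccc
Espl1: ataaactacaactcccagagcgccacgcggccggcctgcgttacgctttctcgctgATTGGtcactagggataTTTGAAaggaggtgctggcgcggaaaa
Top2a: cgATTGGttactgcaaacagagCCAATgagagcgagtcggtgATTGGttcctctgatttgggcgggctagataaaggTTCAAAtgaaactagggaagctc
Kif11: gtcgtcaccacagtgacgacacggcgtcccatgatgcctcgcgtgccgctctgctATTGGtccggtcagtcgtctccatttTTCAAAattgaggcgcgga
In GRCm38.p6 these stretches are Cdk1 at chr10:69352913-69353012 on the minus strand, Cdc20 at chr4:118437344-118437443 on the minus strand, Ube2c at chr2:164769829-164769928 on the plus strand, Espl1 at chr15:102296193-102296292 on the plus strand, Top2a at chr11:99024190-99024289 on the minus strand and Kif11 at chr19:37376282-37376381 on the plus strand.

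For comparison, the same stretch is shown for 3 genes that did not fall in this test: Bub3, whose stretch holds both motifs, and Pttg1 and Birc5, whose whole windows hold neither.
Bub3: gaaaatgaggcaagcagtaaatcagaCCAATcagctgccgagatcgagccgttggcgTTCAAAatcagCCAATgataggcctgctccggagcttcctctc
Pttg1: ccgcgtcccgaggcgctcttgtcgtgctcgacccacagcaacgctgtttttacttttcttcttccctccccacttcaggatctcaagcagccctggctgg
Birc5: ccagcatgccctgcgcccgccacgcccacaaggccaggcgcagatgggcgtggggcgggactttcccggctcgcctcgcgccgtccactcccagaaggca
They are Bub3 at chr7:131560270-131560369 on the plus strand, Pttg1 at chr11:43425982-43426081 on the minus strand and Birc5 at chr11:117849137-117849236 on the plus strand. Of the 45 genes that fell and have a window, 31 hold TTTGAA (68.9%), 33 hold CCAAT (73.3%) and 26 hold both (57.8%). Of the 6 genes that did not fall, Bub3, Kif23 and Racgap1 hold both, and Cdc25b holds CCAAT and the variant TTCGAA. With the replicate block Bub3, Kif23 and Birc5 passed as lower and Cdc25b as higher. Whether the motifs go with the fall was not tested.

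The regulators of mitotic entry fell in 10 of 11 cases, with a median of -1.19. Cdk1, the kinase that drives cells into mitosis, read 10.08, 10.57 and 10.005 on the EGFP side against 8.83, 9.22 and 8.76 on the EVI1 side, each in the order of replicates 1, 2 and 3 as in all values below (-1.28 ± 0.18 SE, n = 3 arrays per group here and below, adjusted p = 0.00234). Every EVI1 array lay below every EGFP array. Its small cofactor Cks1b read 11.83, 11.67 and 11.88 against 10.62, 10.75 and 10.44, a 2.28-fold fall (-1.19 ± 0.12, adjusted p = 0.000499), while the paralog Cks2 fell by 0.48 ± 0.12 (adjusted p = 0.0315). The other kinases of this role group fell as well. They were Plk1, which sets up the spindle poles (-1.15 ± 0.18), Plk4, which starts centriole copying (-1.37 ± 0.17), and Aurka, which matures the centrosome (-1.27 ± 0.15). Nek2, which parts the centrosomes (-0.86 ± 0.20), and Melk (-0.65 ± 0.15) were also among them. The calls of Cks2 and Melk were lost without EGFP replicate 1 (adjusted p = 0.0756 and 0.05928), EGFP replicate 3 (0.1066 and 0.0687), EVI1 replicate 1 (0.08905 and 0.06597) or EVI1 replicate 3 (0.1023 and 0.08045), and that of Nek2 without EVI1 replicate 1 (0.06207) or 3 (0.07562). Foxm1, a transcription factor of G2 and M phase genes, fell by 1.21 ± 0.15.

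The CDC25 phosphatases, which remove the inhibitory phosphates of Cdk1, differed in direction. Cdc25c read 8.87, 9.14 and 9.14 against 7.81, 8.05 and 7.65 (-1.22 ± 0.14, adjusted p = 0.000823). Cdc25b read 7.81, 8.98 and 7.90 against 8.81, 9.35 and 9.12, a difference of 0.86 ± 0.30 that did not pass (adjusted p = 0.0896). Its groups overlap because EGFP replicate 2 stood far above the other EGFP arrays and within the range of the EVI1 arrays. Cdc25b passed with the replicate block (0.0141) and without EGFP replicate 2 (1.24, adjusted p = 0.00148). In 12 of 16 alternative settings it did not pass. Among these were the fits without EGFP replicate 1 (0.2384) or 3 (0.2578) and without EVI1 replicate 1 (0.09966), 2 (0.2494) or 3 (0.228).

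Transcripts of the chromosomal passenger complex, which corrects wrong attachments at the centromere, fell in 3 of 4 cases. Cdca8 (borealin) read 9.94, 10.09 and 9.89 against 8.81, 9.005 and 8.45 (-1.22 ± 0.15, adjusted p = 0.00126). Incenp, the scaffold, read 9.51, 9.73 and 9.73 against 8.71, 8.82 and 8.49 (-0.98 ± 0.13, adjusted p = 0.00137). The kinase subunit Aurkb had the lowest difference of the complex, at -1.51 ± 0.29, and also a wide spread, from 10.13 to 11.32 among EGFP values and from 8.89 to 9.58 among EVI1 values. Birc5 (survivin) read 10.38, 11.36 and 10.23 against 9.61, 10.02 and 9.66. No EVI1 value of Birc5 reached an EGFP value, but the difference of -0.89 ± 0.28 was the nearest of the list to pass without doing so (adjusted p = 0.0623). With the replicate block it passed (0.0095), and without EGFP replicate 2 it was -0.54 (adjusted p = 0.03761). Birc5 did not pass in 11 of 16 alternative settings, among them the fits without EVI1 replicate 1 (0.1679) or 3 (0.1947).

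The spindle checkpoint fell in 4 of 5 cases. Bub1, a checkpoint kinase at the kinetochore, read 11.65, 11.33 and 11.58 against 10.12, 10.32 and 9.75, a 2.74-fold fall (-1.46 ± 0.16, adjusted p = 0.000756). Ttk (Mps1), the kinase at the top of the checkpoint, read 10.12, 9.73 and 9.93 against 8.40, 8.74 and 8.29 (-1.45 ± 0.15, adjusted p = 0.000602). Bub1b (BubR1) fell by 1.27 ± 0.15 and Mad2l1 (Mad2) by 1.08 ± 0.14; both are parts of the complex that holds back Cdc20. Bub3, the adaptor that brings Bub1 and BubR1 to the kinetochore, read 9.59, 10.21 and 9.57 against 9.05, 9.39 and 9.14 (-0.60 ± 0.19). Bub3 did not pass (adjusted p = 0.0654), although its groups do not overlap, and passed with the replicate block (0.0121). In 13 of 16 alternative settings it did not pass, among them the fits without EVI1 replicate 1 (0.1889) or 3 (0.1917).

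Anaphase onset held the only member that rose. Cdc20, the activator of the anaphase-promoting complex, read 9.31, 9.84 and 9.56 against 8.59, 8.77 and 8.38 (-0.99 ± 0.16, adjusted p = 0.00421). Ube2c, the ubiquitin-conjugating enzyme of that complex, read 10.44, 10.51 and 10.77 against 9.31, 9.90 and 9.63 (-0.96 ± 0.17, adjusted p = 0.00539). The protease separase (Espl1), which cuts cohesin to release sister chromatids, fell by 0.71 ± 0.13. Securin (Pttg1), the inhibitor that the complex destroys to free separase, went the other way and read 10.05, 10.14 and 9.45 against 10.59, 10.44 and 10.60. This 1.58-fold rise (0.66 ± 0.18, adjusted p = 0.0378) was the call nearest to the threshold on the passing side, with groups that do not overlap. It did not pass without EGFP replicate 3 (0.45, adjusted p = 0.05671) or without EVI1 replicate 1 (0.64, 0.107), 2 (0.71, 0.07699) or 3 (0.64, 0.131), nor with each array centred on its median (0.64, 0.05237), but stayed positive in each of these.

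**Figure D2:**
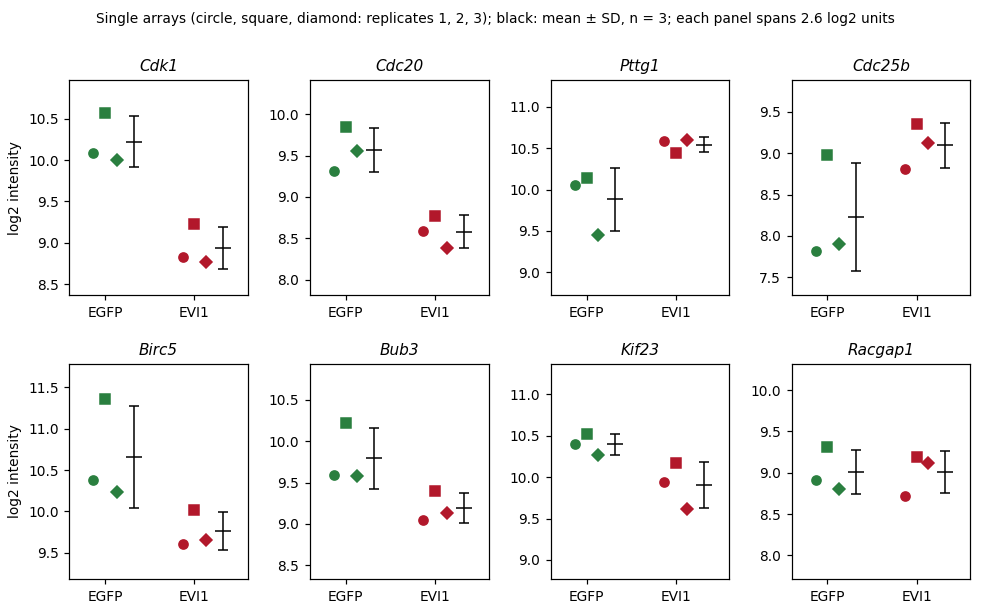
Log2 intensity of single arrays for Cdk1 and Cdc20, which fell, and for the 6 members that did not (Pttg1 rose; Cdc25b, Birc5, Bub3, Kif23 and Racgap1 did not pass); black marks give the mean ± SD of 3 arrays, and every panel spans the same range. EGFP replicate 2, the green square, is the highest EGFP array in all 8 panels, and the groups overlap for Cdc25b and Racgap1.

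Centromere and inner kinetochore genes had the lowest median of the role groups, -1.45, and all 5 measured ones fell. Cenpi read 8.53, 8.42 and 8.30 against 6.95, 6.93 and 6.86 (-1.50 ± 0.11, adjusted p = 0.000128). Its EVI1 mean of 6.91 lay within the upper range of olfactory receptor genes, which blood cells are not thought to express: 95% of 1027 of them read below 6.99 in those arrays. No other member was that dim in either group. Cenpn, which reads the centromeric nucleosome, read 9.62, 10.18 and 9.74 against 8.28, 8.67 and 8.29 (-1.43 ± 0.18, adjusted p = 0.00112). Cenpk fell 3.72-fold (-1.89 ± 0.23), from 10.82, 10.06 and 10.84 to 8.72, 8.95 and 8.37. Cenph, a partner of Cenpk and Cenpi, fell by 1.45 ± 0.21, and Cenpa, the histone that marks the centromere, by 0.94 ± 0.24. Cenpa did not pass without EGFP replicate 3 (adjusted p = 0.06998) or EVI1 replicate 1 (0.09136) or 3 (0.1248).

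All 6 outer kinetochore genes fell, with a median of -1.37. The 4 subunits of the NDC80 complex, the rod that grips the microtubule end, were all among them. Ndc80 read 10.88, 10.34 and 10.87 against 9.18, 9.43 and 9.07 (-1.47 ± 0.17, adjusted p = 0.000921), and Nuf2 read 10.54, 10.63 and 10.58 against 8.99, 9.53 and 8.996 (-1.41 ± 0.16, adjusted p = 0.000722). Spc24 (-1.46 ± 0.20) and Spc25 (-1.20 ± 0.15) form the other end of the rod. Cenpe, the kinesin that carries chromosomes to the spindle equator, fell by 1.33 ± 0.18 and Cenpf, which links to dynein, by 0.88 ± 0.16.

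Mitotic kinesins fell in 9 of 10 cases, with a median of -1.21. The chromosome arm kinesin Kif4 read 10.40, 10.01 and 10.23 against 8.94, 8.95 and 8.64 (-1.37 ± 0.14, adjusted p = 0.000509). Kif18a, which damps chromosome movements at the plate, read 9.49, 9.50 and 9.35 against 8.04, 8.39 and 7.80 (-1.37 ± 0.15, adjusted p = 0.000767). Kif11 (Eg5), which pushes the spindle poles apart, fell by 0.89 ± 0.14, and Kif15, which can share that task, by 1.47 ± 0.21. Kif2c (MCAK), which takes microtubules apart at the centromere, fell by 1.26 ± 0.26, a call lost without EVI1 replicate 3 (adjusted p = 0.06326), and Kif22, another chromosome arm motor, fell by 0.71 ± 0.12. Of the motors of the central spindle, Kif14 (-1.16 ± 0.15), Kif20a (-1.08 ± 0.14) and Kif20b (-1.45 ± 0.17) fell. Kif23 (MKLP1) read 10.40, 10.52 and 10.27 against 9.94, 10.17 and 9.62 and did not pass (-0.49 ± 0.15, adjusted p = 0.0635), though its groups do not overlap. Kif23 passed with the replicate block (0.0199), with the arrays quantile-normalised once more (0.03645) and without EVI1 replicate 2 (-0.62, adjusted p = 0.037). It did not pass in 11 of 16 alternative settings, among them the fits without EVI1 replicate 1 (0.1376) or 3 (0.1786).

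All 4 spindle-associated proteins fell. Tpx2, which activates Aurka and seeds microtubules around chromosomes, read 10.31, 10.58 and 10.36 against 9.23, 9.46 and 9.15 (-1.14 ± 0.13, adjusted p = 0.000752). Hmmr, which helps to place the spindle, read 10.14, 10.01 and 10.31 against 8.66, 9.16 and 8.27 (-1.46 ± 0.21, adjusted p = 0.00245). In both genes every EVI1 array lay below every EGFP array. Nusap1, which bundles spindle microtubules, fell by 0.97 ± 0.15, and Prc1, which crosslinks the central spindle, by 0.93 ± 0.15.

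Cytokinesis split within its own pathway. Ect2, the exchange factor that switches on RhoA at the cell equator, read 10.36, 10.59 and 10.36 against 9.15, 9.71 and 9.21 (-1.08 ± 0.16, adjusted p = 0.00299). Anln (anillin), a scaffold of the contractile ring, read 10.41, 10.39 and 10.35 against 9.57, 9.72 and 9.10 (-0.92 ± 0.16, adjusted p = 0.00556). Racgap1, which pairs with Kif23 as centralspindlin and recruits Ect2, read 8.92, 9.31 and 8.80 against 8.72, 9.19 and 9.11. Its groups overlap, with a difference of -0.002 ± 0.18 (adjusted p = 0.997), and it was the only member that did not pass with the replicate block (0.995).

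All 7 genes of chromosome structure fell, with a median of -1.12. Smc2, the ATPase shared by both condensins, read 11.27, 10.92 and 11.38 against 9.83, 9.75 and 9.64 (-1.45 ± 0.14, adjusted p = 0.000394). Top2a, which untangles chromosome arms, read 11.93, 11.89 and 12.03 against 10.85, 11.00 and 10.64 (-1.12 ± 0.12, adjusted p = 0.000645). Smc4, the partner of Smc2, fell by 0.76 ± 0.17, and the condensin I subunits Ncaph, Ncapg and Ncapd2 fell by 1.23 ± 0.16, 1.02 ± 0.15 and 0.97 ± 0.14. Smc4 did not pass without EGFP replicate 3 (adjusted p = 0.06233) or EVI1 replicate 3 (0.07089). Mki67, the proliferation marker Ki-67, which coats mitotic chromosomes, fell by 1.12 ± 0.17 from 11.76, 11.24 and 11.73 to 10.51, 10.60 and 10.25.

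**Figure D3:**
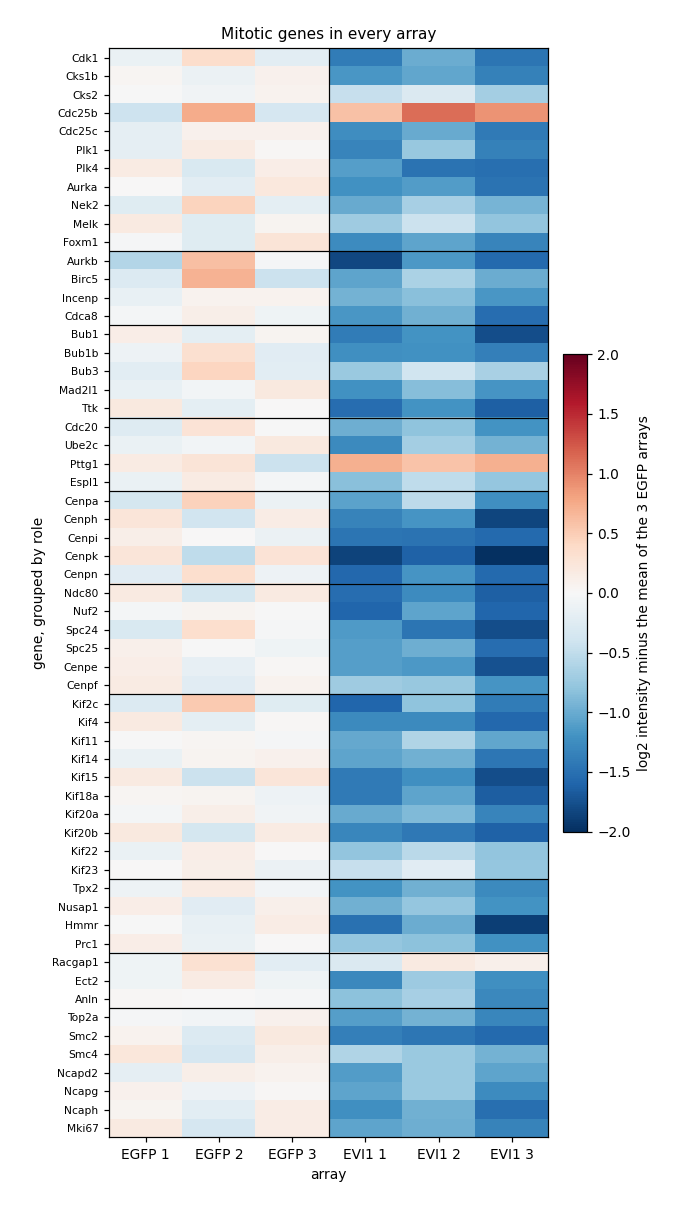
Log2 intensity of the 59 mitotic genes (rows, grouped by role as in the list of differences) in each of the 6 arrays (columns), minus the gene's mean over the 3 EGFP arrays; blue is lower and red is higher. The 3 EVI1 columns are blue in nearly every row, with Pttg1 and Cdc25b red in all 3 and Racgap1 near white.

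Between the role groups the medians ran from -0.83 in anaphase onset and -0.92 in cytokinesis to -1.37 in the outer kinetochore and -1.45 in the inner kinetochore. In each of the 10 groups at least 66.7% of the measured members fell, beside 9.18% of all genes. The ranges of the groups overlap: the least lowered inner kinetochore gene (Cenpa, -0.94) moved less than Cdc20 (-0.99). Standard errors of members ran from 0.11 to 0.30. The order of the group medians is thus a description, and no difference between groups was tested.

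The change of the difference between partner genes within an array was compared for 14 pairs, which were picked with the values known. With 3 arrays against 3 the exact two-sided permutation test allows no p under 0.1, and the lowest value adjusted over the 14 pairs was 0.14, so none could pass. The log2 ratio of Cdc25c to Cdc25b was 2.08 lower in the EVI1 arrays than in the EGFP arrays, and that of separase (Espl1) to securin (Pttg1) 1.37 lower.

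For the other pairs, the change in the EVI1 arrays was -0.67 for Bub1b minus Bub3 and -0.61 for Aurkb minus Birc5. It was -0.91 for Cdc20 minus Fzr1, the activator of the anaphase-promoting complex for late mitosis and G1. It was -1.08 for Ect2 minus Racgap1, -0.71 for Cks1b minus Cks2 and -0.99 for Top2a minus its paralog Top2b. Among chromosome ATPases and their partners it was -1.30 for Smc2 minus the cohesin subunit Smc1a and -1.10 for Ncaph minus its condensin II counterpart Ncaph2. Groups overlapped for Kif23 minus Racgap1 (-0.49), Kif20a minus Kif20b (0.38), Smc4 minus the cohesin subunit Smc3 (-0.12) and Ncapd2 minus Ncapd3 (0.33).

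Arrays of 1 group also differed among themselves. The mean over the 59 members was 10.06, 10.11 and 10.09 on the EGFP side and 9.002, 9.23 and 8.84 on the EVI1 side, which was the less even group. EVI1 replicate 2 was the highest of its group for 49 of the 59 members, beside 29.7% of all genes, and EVI1 replicate 3 was the lowest for 44, beside 28.7% of all genes. EGFP replicate 2 was the highest of its group for 27 members, beside 32.7% of all genes, and the lowest for 25, beside 40.9% of all genes. At its extremes, picked after the values were seen, it lay above its group mean by 0.75 for Cdc25b, 0.70 for Birc5, 0.60 for Aurkb and 0.52 for Kif2c, and its deviation was -0.51 for Cenpk, -0.43 for Kif15 and -0.38 for Cenph. The median SD of the members was 0.19 on the EGFP side and 0.23 on the EVI1 side, against 0.16 and 0.13 over all genes.

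**Figure D4:**
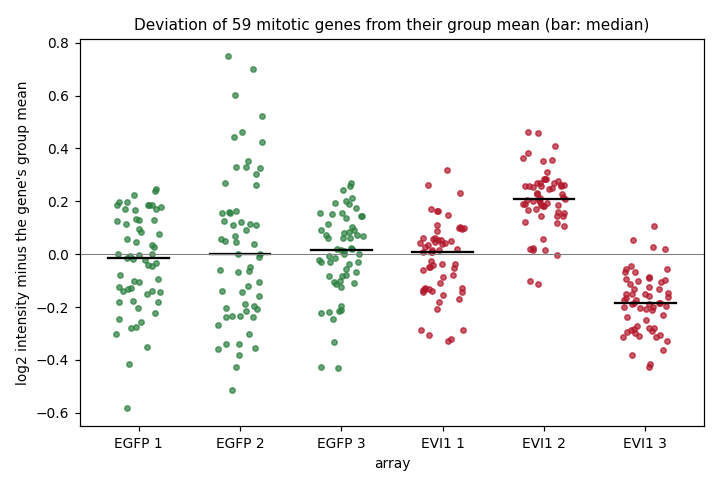
Deviation of each of the 59 mitotic genes from the mean of its own group (vertical axis, log2), for each of the 6 arrays. EVI1 replicate 2 sits above 0 for 56 genes and EVI1 replicate 3 below 0 for 55, while EGFP replicate 2 spreads from -0.51 to 0.75.

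Other genes of mitosis, taken from lists of kinetochore, checkpoint, spindle, and condensin and cohesin genes, were also lower in part. Of 101 measured, 65 fell (64.4%, beside 9.18% of all genes), 1 rose and 35 did not pass, with a median of -0.68. The difference from the 59 members was not tested. Among other kinetochore and centromere genes 19 of 25 fell (median -0.68). The microtubule-binding scaffold Knl1, the partner platform of the NDC80 complex, read 11.62, 11.32 and 11.52 against 9.68, 9.84 and 9.33 (-1.87 ± 0.15, adjusted p = 0.000227). Zwilch (-1.87 ± 0.18) and Kntc1 (-1.53 ± 0.15), both of the RZZ complex that recruits checkpoint proteins, fell with it.

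Of the other checkpoint, anaphase and entry genes 14 of 28 fell (median -0.58). Cyclin A2 (Ccna2) fell by 1.22 ± 0.11, the Plk1 activator Bora by 1.34 ± 0.12 and Trip13, which resets Mad2, by 1.47 ± 0.16. The anaphase-promoting complex itself, the partner of Cdc20 and Ube2c, was called lower in 2 of its 12 subunits (16.7%, beside 9.18% of all genes), with a median of -0.28. Other spindle, motor and cytokinesis genes fell in 22 of 30 cases (median -0.94), with Ckap2l (-1.53 ± 0.17), Spag5 (-1.24 ± 0.14) and Tacc3 (-1.20 ± 0.14), which bind the spindle, at the smallest p. The HAUS complex, which branches spindle microtubules, fell in 5 of 6 subunits.

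Other condensin and cohesin genes fell in 10 of 18 cases (55.6%, beside 9.18% of all genes), with a median of -0.43. Cdca5 (sororin), which guards cohesin until mitosis, fell by 1.13 ± 0.10, the cohesin acetyltransferase Esco2 by 1.92 ± 0.18 and the condensin II subunit Ncapg2 by 1.65 ± 0.16. Stag2, a cohesin subunit present through the cell cycle, read 10.77, 10.42 and 10.49 against 10.96, 11.06 and 10.94 and was the only one of the 101 that rose (0.42 ± 0.12, adjusted p = 0.0462). Over both lists, 7 of the 8 SMC, kleisin, G and D subunits of the condensins fell.

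DNA replication genes, which act in S phase before the mitotic ones, fell in 36 of 42 cases (85.7%, beside 9.18% of all genes). None of the replication genes rose, beside 9.06% of all genes, and their median was -1.15. The polymerase subunit Pole was called at -2.07 ± 0.12, the origin recognition subunit Orc1 at -1.72 ± 0.11 and the helicase subunit Mcm4 at -1.62 ± 0.11. Mitotic and replication genes thus had the same median to 2 decimals; the difference between them was not tested.

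**Figure D5:**
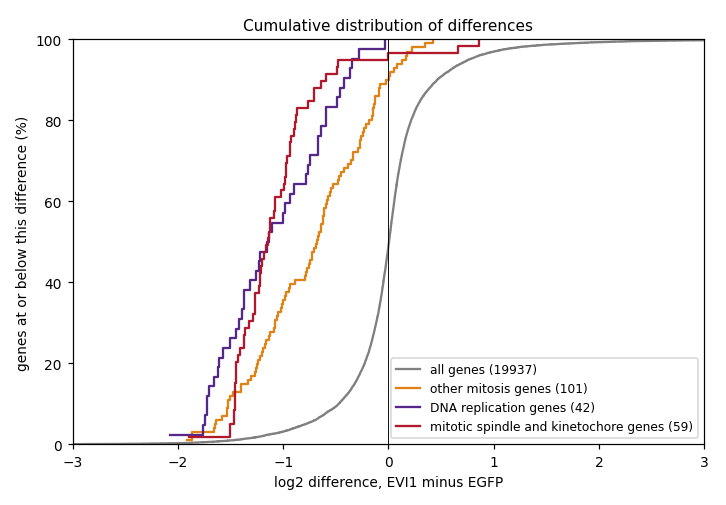
Cumulative share of genes (vertical axis) at or below each log2 difference between the EVI1 and EGFP arrays (horizontal axis) for the mitotic genes, the other mitosis genes, the replication genes and all 19937 genes. The curve of all genes crosses its middle at 0.0060, and those of the mitotic, other mitosis and replication genes at -1.15, -0.68 and -1.15.

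A few members were read by more than 1 probe set. The other 2 sets of Cks2 gave -0.79 (adjusted p = 0.0244) and -0.46 (adjusted p = 0.154) beside -0.48 in the set used, in a fit over all probe sets with 1 symbol. A dim second set of Top2a, with a mean of 5.88 in the EGFP arrays, gave -1.09 (adjusted p = 0.0224).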

How the data were processed

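Gene expression was measured on 6 arrays, 3 per group, of which each holds 34760 probe sets. The authors deposited log2 values that were normalised with RMA, per the submitters' processing notes, and these were used as given. The platform annotation gives 1 symbol to 21640 probe sets, several to 1321 and none to 11799; the set with the highest mean was kept for each of 19937 genes. Groups were compared by limma's moderated linear model (version 3.58.1, run under R 4.3.3; no block, adjusted p by Benjamini-Hochberg over all genes, threshold 0.05). The procedure was tested on simulated data with independent noise for each gene and array, so deviations shared between arrays or genes were not covered. Deviations of same-numbered arrays from their group means correlated at 0.491, 0.269 and 0.197 over all genes. Arrays with different numbers were not correlated, so these values cannot show that this pairing is better than another. The replicate numbers in the titles were taken to pair the arrays, which is an assumption, since the labels do not state a pairing. The fit with the number as a block was run beside the main design. Precision is limited by the number of arrays.

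Members and lists were chosen with earlier results of these data known. Values of every array are given for the 2 smallest p-values in each role group, for members that rose or did not pass and for those nearest the threshold; Cdk1, Cenpk and Mki67 were added after their values were seen. In the other mitosis lists the 3 smallest p-values and every rise are named, and in the replication list the 3 smallest. Promoter windows came from RefSeq (GRCm38.p6), matched by symbol and searched on both strands. Alternatives covered normalisation, low-signal filters, probe set choice, the variance model, array weights, the block and leaving out arrays.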

Additional observations from a re-analysis of the deposited data

How the results depend on the processing

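Across 16 alternatives, 46 of the 59 mitotic genes fell in every one, and the number that fell and the median stayed close to the values given. Of 944 single-gene values 899 kept direction and side of the threshold, 17 newly passed, 23 no longer passed and 5 changed sign. The sign changes were all of Racgap1, whose difference was 0.033 after further quantile normalisation, 0.053 with array weights, -0.11 to 0.15 when single arrays were left out (0.15 without EGFP replicate 2 and 0.14 without EVI1 replicate 1) and 0.059 with both arrays numbered 2 left out, an alternative chosen after seeing the data. The number of mitotic genes that rose was 2 with the replicate block, which pairs the arrays, 2 with array weights, 2 with both arrays numbered 2 left out, 0 with each array centred on its median, and 0 to 2 when single arrays were left out; the block changed the calls of Cdc25b, Birc5, Bub3 and Kif23 and no other member's. Leaving out single arrays gave 2289 to 4098 changed genes of all genes, against 3638, with the lowest value without EVI1 replicate 3, when 12 mitotic genes did not pass. Kif14 did not pass with the mean of its probe sets or the dimmer set, and Cks2, Melk, Nek2, Cenpa, Kif2c and Smc4 did not pass without some single arrays. The cause of these changes was not tested. Signals at the olfactory receptor level, as for Cenpi in the EVI1 arrays, limit how large a fall can be read.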

Other observations

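The dimmer of the 2 probe sets of Kif14 read 5.16, 8.12 and 5.14 (EGFP) against 4.85, 4.85 and 5.29 (EVI1). EGFP replicate 2 alone was high there, and the difference of -1.14 ± 0.71 (SE, n = 3 arrays per group) did not pass (limma adjusted p = 0.376), while the brighter set of the same gene read 10.01 in that array and 9.82 and 10.06 in the other EGFP arrays.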
